A study of Cynodon dactylon with 6 samples.

Results

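A set of 195 unigenes of bermudagrass leaves stood above their control level after 2 h at 42 °C and below it after 12 h. Bermudagrass (Cynodon dactylon) is a warm-season turf and forage grass, and a unigene is a gene-level unit whose ID here has the form that an assembly without a reference genome gives. Members were chosen by rule from the deposited estimated read counts. Counts were divided by a size factor per library, the median of its ratios to the geometric mean over the 18038 unigenes with 10 or more reads in all 6 libraries, and the result is called normalised reads. With 1 added to each group mean, a member had at least 150 normalised reads at 2 h, at least 1.5 times its control level at 2 h, and at 12 h no more than its control level divided by 1.5. The rule was met by 195 of 111743 unigenes, 0.175% of the table, by 2.39% of the 8175 unigenes with at least 150 normalised reads at 2 h, and by 11.1% of the 1761 that also met the fold limit there. All 195 passed the abundance filter that left 25828 unigenes for testing.

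Plants that become too warm switch on heat shock factors, the transcription factors that raise chaperone genes, while the transcripts of many genes for photosynthesis and growth decline. Transcript levels follow both synthesis and decay, and a response to continued heat often passes through an early phase that is later given up. Under long heat a leaf may thus hold less of a transcript than before the stress, even where the first hours had raised it. No table used here gives names for the unigene IDs. No member could therefore be placed in any of these groups, and the labelled leaf tissue could not be checked against leaf marker genes. At most 4 IDs are printed below, and other members are identified by their rank.

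Leaves came from 10-day-old wild-type seedlings in 3 groups of 2 libraries each: unheated controls labelled 0 h, seedlings held at 42 °C for 2 h, and seedlings held at 42 °C for 12 h. Unheated leaves of 2 h or 12 h were not analysed here, and the length of the heat treatment cannot be told apart from the time at which leaves were taken. Whether replicates were separate plants or pools is not in the labels. The p-values behind the calls thus measure only the spread between these libraries, which may be technical. Library totals ran from 6313500 to 9326725 assigned reads, and no member had fewer than 5 reads in any library.

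The rule read the group means of all 6 libraries. The levels and ratios that follow therefore describe how the set was chosen, and no test is given on them. A rise or drop below is a difference between group means, not a call. The 195 unigenes took 2.49% and 2.72% of the reads of the control libraries, 5.44% and 4.95% of the 2 h libraries, and 1.73% and 1.51% of the 12 h libraries. Both 2 h libraries lay above both controls, and both 12 h libraries below them. The group means were 2.60% ± 0.164, 5.19% ± 0.351 and 1.62% ± 0.158 (SD, n = 2 each). The 95% Wilson intervals of the single libraries reached at most 0.0166 percentage points to either side and cover counting error only, so the spread between replicates was the larger error. On the scale of normalised reads the summed level at 2 h was 1.96 times that of the controls, and the control level was 2.41 times that at 12 h. As shares of the library totals these ratios were 2.00 and 1.61. In RNA from whole leaves, fewer cells of a type and less RNA per cell cannot be told apart.

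**Figure D1:**
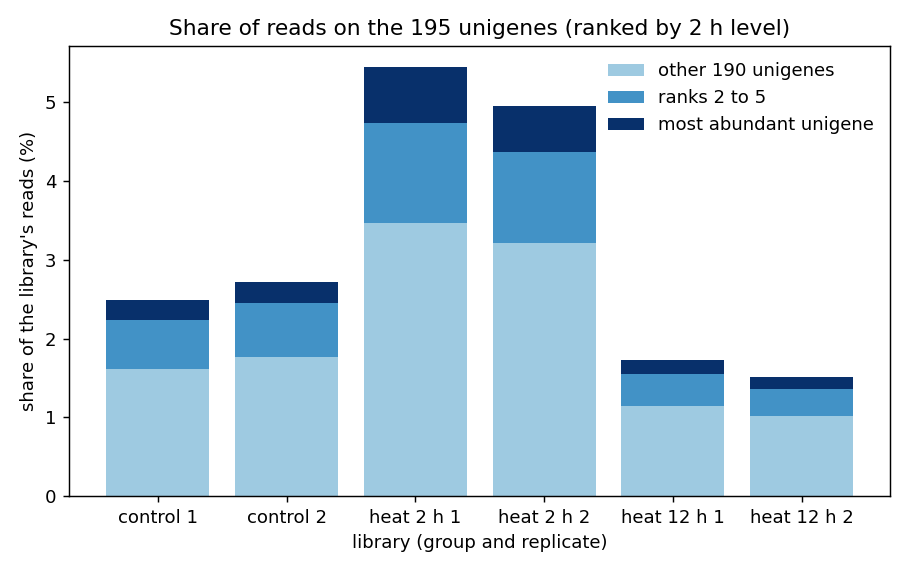
Share of each library's reads, in percent, that fell on the 195 unigenes, as stacked bars for the most abundant unigene at 2 h, those of ranks 2 to 5, and the other 190. The bars stand between 4.95% and 5.44% in the 2 h libraries, between 2.49% and 2.72% in the controls and between 1.51% and 1.73% at 12 h.

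The set's part of the reads on raised unigenes was smallest at 12 h, which follows from the rule's limit on the 12 h level. The 1761 unigenes raised at 2 h held 9.20% and 10.2% of the reads in the controls, 24.6% and 24.9% at 2 h, and 23.1% in each 12 h library. Of these raised reads the 195 carried 27.0% and 26.8% in the controls, 22.1% and 19.8% at 2 h, and 7.49% and 6.52% at 12 h. The other raised unigenes fall into 884 that were still at least 1.5 times the control level at 12 h and 682 that lay within 1.5-fold of it.

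**Figure D2:**
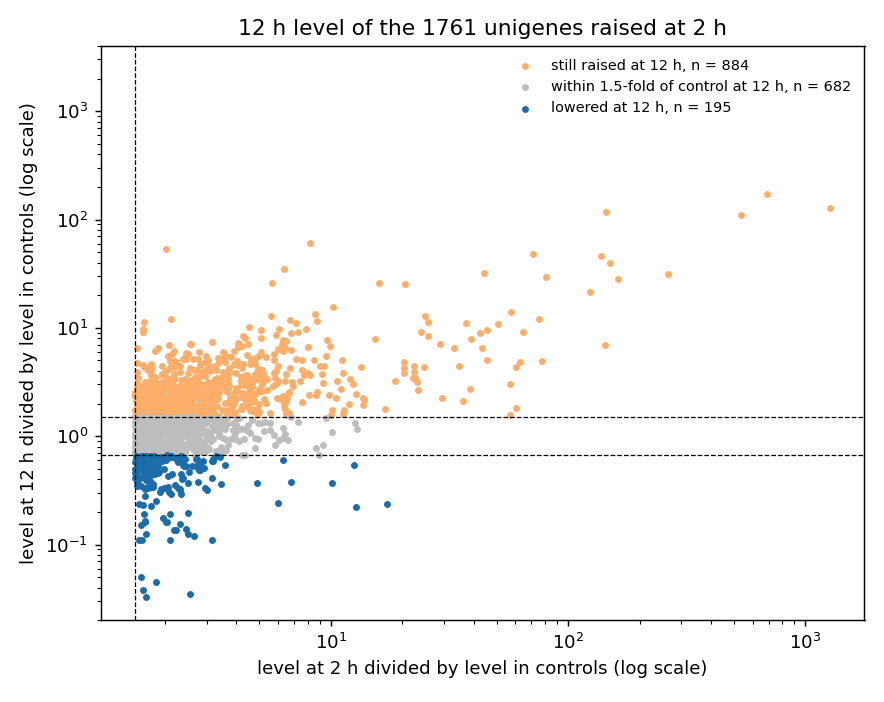
Each point is 1 of the 1761 unigenes with at least 150 normalised reads and at least 1.5 times the control level at 2 h. The horizontal axis gives the level at 2 h and the vertical axis the level at 12 h, each divided by the control level on log scales, and dashed lines mark the limits of 1.5-fold. The 195 lowest points reach down to 0.0331 of the control level, and the points beyond 17.3 on the horizontal axis all belong to other classes.

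Most members rose modestly. The level at 2 h had a median of 1.79 times the control level (quartiles 1.64 and 2.32), and 121 of the 195 lay between the limit of 1.5 and 2. Another 56 lay between 2 and 3, 10 between 3 and 4, 4 between 4 and 8, and 4 at 8 or above. For comparison, the median ratio was 1.92 among the 682 raised unigenes that were near control at 12 h and 2.53 among the 884 that were still raised. Over all 25828 tested unigenes the median ratio was 1.0.

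The later drop spread more widely than the rise. The control level was a median of 2.04 times the 12 h level (quartiles 1.72 and 2.94). There were 93 members between 1.5 and 2, 56 between 2 and 3, 15 between 3 and 4, 20 between 4 and 8, and 11 at 8 or above. From 2 h to 12 h the level dropped by a median of 4.07 times, with a range from 2.32 to 73.6 times. A rise of at least 2-fold and a later level at least 2-fold below control met in 41 unigenes, of 74 with such a rise and 102 with such a drop.

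**Figure D3:**
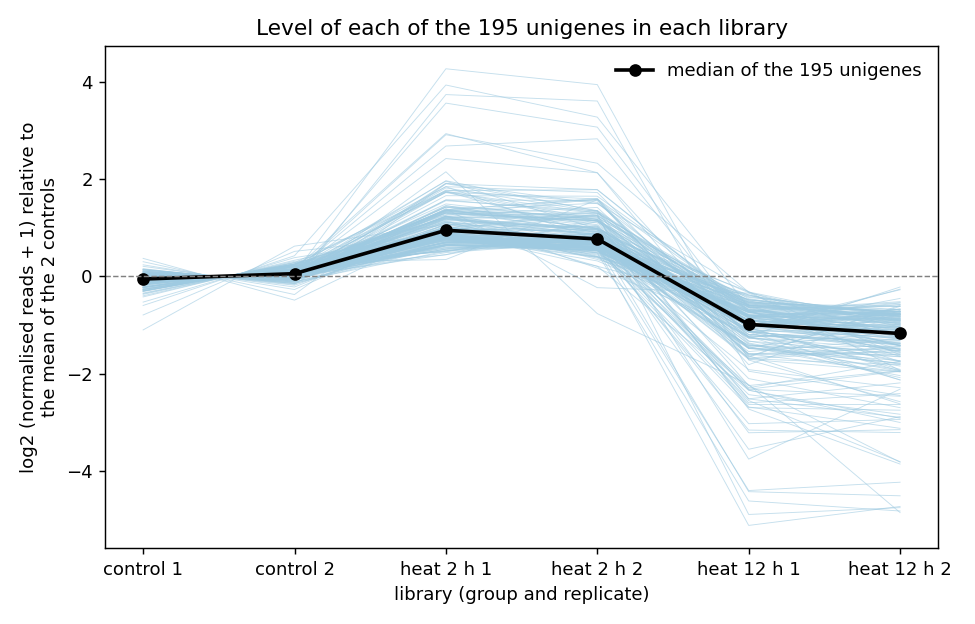
Level of each of the 195 unigenes in the 6 libraries, as log2 of normalised reads plus 1 relative to the mean of the 2 controls. Thin lines join the values of 1 unigene, and the black line is the median. Every line but 2 is higher in both 2 h libraries than in both controls, and every line but 1 is lower in both 12 h libraries than in both controls. These orders were met by 32.7% and 33.9% of all tested unigenes, and the rule's means favour them.

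The members spanned a wide range of abundance. At 2 h their median was 681 normalised reads, from 152 to 57248, with 77 unigenes under 500, 68 from 500 to 2000, 43 from 2000 to 10000, and 7 above. Controls had a median of 363 and 12 h leaves one of 140. Among the 100 unigenes with the most reads, 5 were members in the controls, 10 at 2 h and 4 at 12 h, and among the first 1000 these numbers were 43, 67 and 24. By FPKM, which divides reads by unigene length, the members among the first 100 numbered 5, 8 and 4. The rule selected more of the abundant unigenes: members made up 1.51% of the 5114 unigenes between 150 and 500 normalised reads at 2 h, 2.79% of the 2436 between 500 and 2000, and 8.0% of the 625 above 2000. Among raised unigenes alone the members made up 8.49%, 11.2% and 20.1% of the same bands.

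A few unigenes carried much of the sum. The 5 most abundant at 2 h held 35.2% ± 0.238 of the set's reads in the controls, 35.6% ± 0.870 at 2 h and 33.3% ± 1.01 at 12 h (SD, n = 2 each), and the other 190 followed the same course, with 1.69% ± 0.112, 3.34% ± 0.181 and 1.08% ± 0.0892 of all reads. The first of them had 23248 and 24734 normalised reads in the controls, 64453 and 50042 at 2 h, and 10880 and 9028 at 12 h. Its libraries did not overlap between groups, and the gap between the 2 h replicates was its widest. Per length it stood at 1882 ± 68.5 FPKM in the controls, 4384 ± 578 at 2 h and 1148 ± 126 at 12 h (SD, n = 2 each).

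The second most abundant member dropped further. It had 19057 and 21234 normalised reads in the controls, 45475 and 36119 at 2 h, and 3974 and 2504 at 12 h. Its 12 h level was 6.22 times below control, the deepest drop of the first 5, whose others were 1.76 to 2.41 times below. The third had 15816 and 17675 normalised reads in the controls, 27160 and 25343 at 2 h, and 9614 and 7494 at 12 h. This was a long unigene, with an implied length of 4814 bases, so that per length it fell behind, at 385 ± 28.3 FPKM in the controls and 613 ± 0.198 FPKM at 2 h (SD, n = 2). The fourth rose 1.82-fold and the fifth 1.86-fold at 2 h. Of the 20 members with the most reads at 2 h, 14 were also among the 20 with the highest FPKM.

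The largest rise belonged to c68197_g1. It had 228 and 246 normalised reads in the controls, 4585 and 3658 at 2 h, and 71.1 and 38.8 at 12 h. Its 2 h level was 17.3 times that of the controls, with a log2 fold change of 4.12 ± 0.26 (SE, edgeR), and its 12 h level was 4.25 times below control. All 3 groups were far apart, and the 12 h replicates differed most in proportion. Per length it reached 1799 ± 233 FPKM at 2 h (SD, n = 2), from 110 ± 6.29 in the controls.

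Unigene c70711_g1 followed. It had 120 and 99.1 normalised reads in the controls, 1466 and 1337 at 2 h, and 27.4 and 19.1 at 12 h. The rise was 12.7-fold, a log2 fold change of 3.67 ± 0.15 (SE, edgeR), and at 12 h it was 4.55 times below control. These 2 unigenes were the only members with both a rise above 8-fold and a drop above 4-fold, and both were short, with implied lengths of 248 and 419 bases.

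Large rises were rare in the set. The 8 members that rose at least 4-fold had 32.1 to 843 normalised reads in the controls and 223 to 5289 at 2 h, and their 12 h levels were 1.65 to 4.55 times below control. Their share of all reads was 0.0183% in the controls, 0.165% at 2 h and 0.0124% at 12 h. In all 8 the libraries of the 3 groups did not overlap, against 5.46% of all tested unigenes. Choosing large rises in the same libraries favours this order, so the count is a description only. One pair among them shares a component of the assembly and rose 10.1-fold and 12.5-fold. The most abundant of the 8 at 2 h and the pair's unigene with the 12.5-fold rise were not called lower at 12 h than in controls (edgeR adjusted p = 0.211 for each).

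The deepest drops were of c79281_g1 and c81827_g1. The former had 411 and 487 normalised reads in the controls, 821 and 668 at 2 h, and 11.9 and 15.9 at 12 h. Its rise of 1.66-fold was close to the limit, while its 12 h level was 30.2 times below control, a log2 fold change of -5.02 ± 0.19 (SE, edgeR). The latter had 244 and 257 normalised reads in the controls, 672 and 610 at 2 h, and 7.41 and 8.27 at 12 h. It rose 2.55-fold and then stood 28.4 times below control, with a log2 fold change of -5.00 ± 0.18 (SE, edgeR). Its 12 h values rest on 10 and 13 reads.

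**Figure D4:**
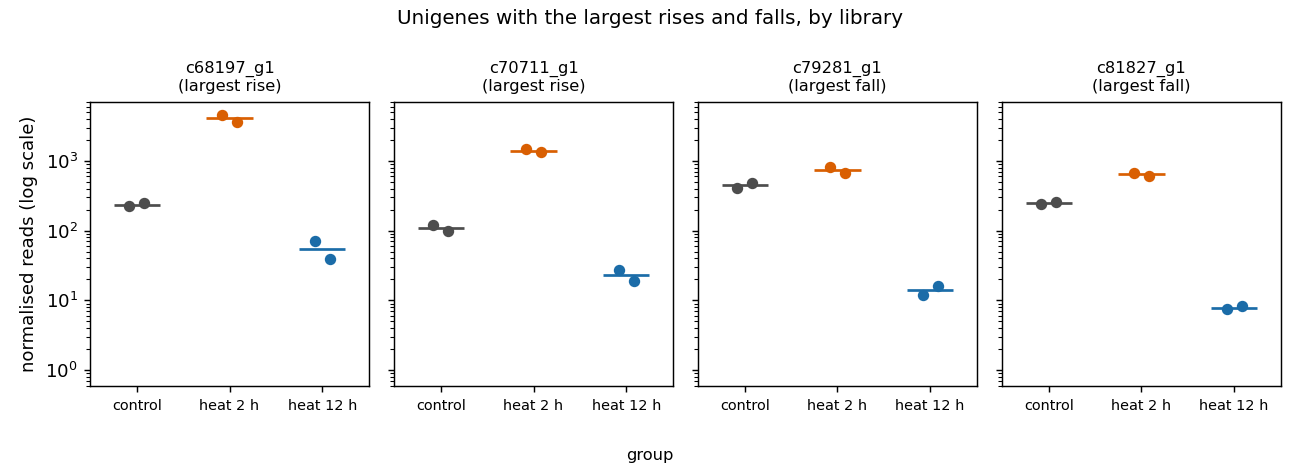
Normalised reads, on a log scale, of the unigenes with the 2 largest rises at 2 h and the 2 deepest drops at 12 h. Points are single libraries and bars are group means. The 2 h points of c68197_g1 lie at 4585 and 3658 against 228 and 246 in the controls, and the 12 h points of c79281_g1 at 11.9 and 15.9 against 411 and 487.

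The deepest drops came with rises of about the set's usual size. The 11 members at least 8-fold below control at 12 h had risen by 1.56-fold to 3.15-fold, with a median of 1.83 against 1.79 in the whole set. Their control levels ran from 59.8 to 2243 normalised reads and their 12 h levels from 5.67 to 245. Together they went from 0.0765% of the reads in the controls to 0.147% at 2 h and 0.00922% at 12 h. The 31 members at least 4-fold below control had a median rise of 2.01-fold, and 16 of them had risen at least 2-fold, against 74 of all 195. Of the 8 members with a rise of at least 4-fold, 3 were among these 31.

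The order of groups held in the single libraries of nearly all members. Both 2 h libraries exceeded both controls in 193 of the 195, an order met by 32.7% of all tested unigenes. In 194 both 12 h libraries were below both controls, against 33.9% of all tested unigenes, and in all 195 both 12 h libraries were below both 2 h libraries, against 33.3%. Both orders against control were met by 192, against 5.46%. The rule's means favour these orders, so the counts are a description only.

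The 3 exceptions differed in kind. The most abundant of them had 519 and 454 normalised reads in the controls, 1272 and 413 at 2 h, and 382 and 158 at 12 h, so that 1 of the 2 h libraries lay below both controls. Another had 149 and 129 in the controls, 620 and 81.2 at 2 h, and 28.9 and 3.82 at 12 h, and its partner in the same component had 882 and 411 at 2 h. In both unigenes replicate 2 was the lower at 2 h and at 12 h. The last exception had 66.4 and 126 in the controls against 71.1 and 56.0 at 12 h, and it lay next to the limit of the rule.

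Replicates of the members stood further apart than those of abundant unigenes that were not raised. The higher 2 h library exceeded the lower by a median of 1.16 times among the members and 1.10 times among the 6414 unigenes at 150 or more that were not raised, and the 12 h libraries by 1.23 and 1.09 times. The 682 raised unigenes near control at 12 h had 1.12 and 1.16 times, and the 884 still raised 1.16 and 1.20. Levels differed as well: at 12 h the members had a median of 140 normalised reads against 328 for those not raised. At 2 h it was the other way, with 681 against 352. Counting error is larger in proportion at lower counts, and its part in the spread was not tested. Replicate 1 was the higher in 152 of the 195 at 2 h and in 143 at 12 h, while in the controls it was the higher in 53. The same counts were not made for other unigenes, so whether they are particular to the set is not known. The part of a shared difference between libraries in these counts was not tested.

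In edgeR's quasi-likelihood test over all tested unigenes (Benjamini-Hochberg adjusted p below 0.05), 171 members were called higher at 2 h than in controls, where 14.3% of all unigenes were. At 12 h 174 were called lower than in controls, against 24.4%, and 192 lower than at 2 h, against 22.8%. Both calls against control were made for 167 members, out of 429 unigenes in all, or 1.66%. Because the rule used the same contrasts, nothing is read from these counts. The 28 members without both calls had a median rise of 1.86-fold, against 1.78-fold in the 167. Their median 2 h level was lower, with 439 against 745 normalised reads. Their 2 h replicates differed by a median of 1.56 times and their 12 h replicates by 1.83 times, against 1.15 and 1.19. Replicate spread enters the test, so a wider spread among members without calls is given by the sorting.

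The rule was also applied to 1 replicate of each group, and the other replicate was then read. Members were chosen with earlier results of these data known, and whether replicates were separate plants is not in the labels. The reading is therefore a description of how replicates repeat, not independent evidence. The rule was applied to the replicate 1 libraries alone, with their own size factors, and the replicate 2 libraries were then read. It chose 222 unigenes, of which 142 were also members of the set chosen from all libraries. The percentages that follow describe the 222 and are not a rate for the members. In the replicate 2 libraries 205 of the 222, or 92.3%, stood above the control at 2 h and below it at 12 h. This order was met by 18.6% of the unigenes with 150 or more normalised reads at 2 h there. The whole rule was met again by 87, or 39.2%, against 2.28%. The rise, a median of 1.82-fold in the libraries that chose, was 1.49-fold in the others, and the control level was 2.10 and 2.73 times the 12 h level.

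With the roles exchanged, replicate 2 chose 183 unigenes, of which 123 were also members. In the replicate 1 libraries 167 of the 183, or 91.3%, showed both directions. Of the unigenes with 150 or more normalised reads at 2 h there, 20.5% did. The whole rule was met by 87 of the 183, or 47.5%, against 2.68%. The median rise of the 183 was 1.84-fold where chosen and 2.27-fold where read. Their control level was 1.97 and 1.71 times the 12 h level. With 1 library per group on each side there is no test of these counts.

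Many unigenes lay close to the limits. Among the members, 37 had a rise between 1.5-fold and 1.6-fold, and 48 further unigenes that met the other limits lay between 1.4 and 1.5. At 12 h, 26 members had control levels 1.5 to 1.6 times the 12 h level, and 44 raised unigenes lay between 1.4 and 1.5. The member nearest to the limit on the rise had 2337, 3505 and 1338 normalised reads plus 1 in the controls, at 2 h and at 12 h, and the unigene just outside had 106, 159 and 35.2. At the 12 h limit the values were 868, 1776 and 576 just inside, and 403, 1744 and 269 just outside. At the level limit they were 80.8, 153 and 37.5 just inside, and 63.2, 149 and 16.9 just outside. Without a level limit both folds were met by 418 of the tested unigenes, or 1.62%.

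How many unigenes dropped below control at 12 h changed with the scaling of the libraries. Size factors, and the trimmed mean of M-values (TMM) scaling used in edgeR, set the typical unigene near no change, while library totals do not: the median log2 change of all tested unigenes from control to 12 h was 0.12 with TMM and 0.74 with totals alone. The members' median was -1.06 with TMM and -0.43 with totals, which is -1.18 and -1.17 relative to all unigenes. A change of scaling moves the log2 changes of all unigenes by nearly the same amount. The near equality of these differences is therefore arithmetic and gives no information on the drop. With totals 85 unigenes met the rule, 79 of them among the 195. The other 116 still had a mean below control at 12 h, by a median of 1.20 times, and the rise at 2 h met the limit in all 195. Every one of the 31 members at least 4-fold below control stayed in the set under totals, with drops of 2.79 times or more. Totals shrink every drop by nearly the same factor. What happened to the 116 and to the 31 thus follows from their drops by size factors and is no separate support. In edgeR with totals, 2 members had a 12 h change above 0 and were not called. With totals edgeR called 100 members lower at 12 h than in controls, against 12.6% of all unigenes, in place of 174.

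Features that the rule did not use were length and the component of the assembly. A length was implied by count, FPKM and library total for all 195, and 96.5% of the single-library values with at least 100 reads lay within 10% of the unigene's median. This implied length need not equal the length of the sequence. The members had a median of 1179 bases (quartiles 816 and 1563). Raised unigenes near control at 12 h had 1383, those still raised 1443, and those with 150 or more normalised reads at 2 h that were not raised 1653. The members were also the shorter within each band of abundance: 1054 against 1522 bases for all others between 150 and 500 normalised reads, 1169 against 1777 between 500 and 2000, and 1238 against 1666 above. Other raised unigenes had medians of 1332, 1585 and 1411 bases in the same bands. Of the members 8, or 4.10%, reached 3000 bases, against 7.04% of the raised unigenes near control at 12 h, 7.92% of those still raised and 14.3% of those not raised. These are descriptions, since unigenes are not replicates of a condition.

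The 195 members came from 183 components, the assembly's groups of related contigs, which may hold alleles, gene copies or fragments of 1 gene. Of the members 87, or 44.6%, shared a component with another unigene that had reads, against 35.5% of the raised unigenes near control at 12 h, 38.6% of those still raised and 33.4% of those not raised. In 12 components 2 unigenes were members, 24 in all. Within these pairs the rises differed by a median of 1.16 times and the drops by 1.14 times, while the 2 h levels differed by 1.04 to 10.6 times. Both unigenes of a pair had met the same rule, which by itself brings their ratios together. The difference between members of separate components was not computed, so these medians have no comparison.

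The most abundant member belongs to such a pair. Its partner had 2633 and 2594 normalised reads in the controls, 6012 and 4737 at 2 h, and 1037 and 726 at 12 h. With an implied length of 263 bases that partner was exceeded by only the 2 most abundant members in FPKM at 2 h, with 2146 ± 293 (SD, n = 2). The fourth most abundant member had a partner that went from 6832 to 11642 and 2850 normalised reads. A pair with deep drops, to 0.0501 and 0.0451 of the control level at 12 h, had rises of 1.58-fold and 1.83-fold. The widest difference in a pair was in drops of 3.98 and 1.86 times at nearly equal 2 h levels of 3674 and 3548. Reads that fit both unigenes of a component may be divided between them, and both unigenes had to meet the rule. The part of either in the resemblance was not tested.

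**Figure D5:**
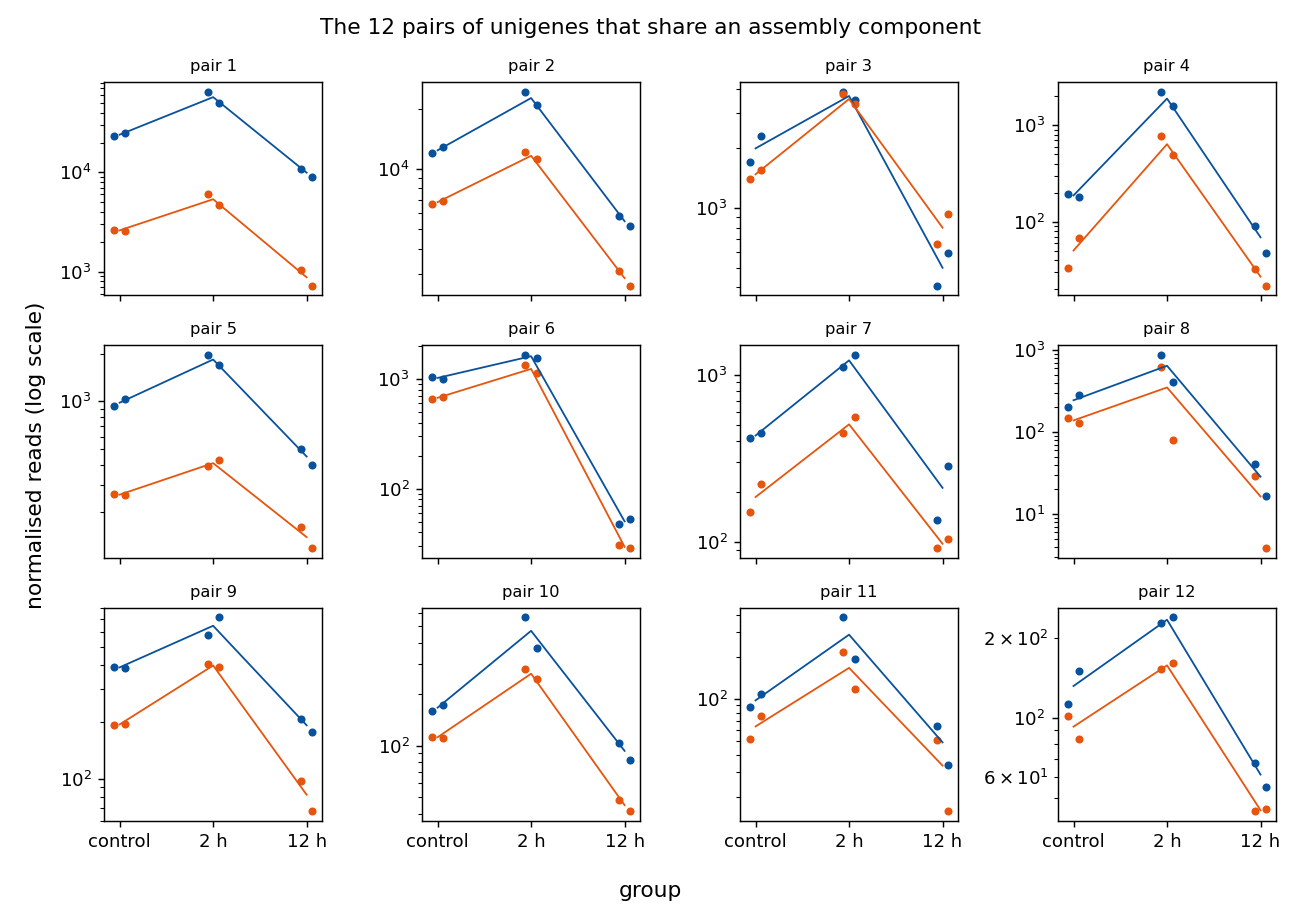
Normalised reads, on log scales that differ between panels, of the 12 pairs of members that share an assembly component, ordered by 2 h level. Points are single libraries and lines join the group means of 1 unigene. The lines of a pair run nearly parallel in most panels, and in pair 3, with drops of 3.98 and 1.86 times, they cross. Both unigenes of a pair had met the rule, so that both rise and then drop is given by the choice.

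Some other unigenes of these components met the folds as well. There were 68 tested partners that were not members. At 2 h 29 of them, or 42.6%, were at least 1.5 times the control level, against 22.5% of all tested unigenes of components with more than 1 unigene. At 12 h 27, or 39.7%, were at most the control level divided by 1.5, against 24.7%. Both folds were met by 7, or 10.3%, against 1.70%. The opposite outcome occurred as well, since 10 partners were raised by that fold at both times.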

How the data were processed

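RNA sequencing of leaves gave 6 libraries, 2 per group, mapped to groups by their titles and to table columns by their descriptions. The authors deposited estimated counts per unigene without scaling between libraries, of which 99.3% of values above 0 are whole, and FPKM values, which take account of unigene length and sequencing depth. The submitters' processing notes name DESeq 1.18.0, HTSeq 0.6.1, TopHat2 2.0.12 and Bowtie2 2.2.3 without a role. Which assembler and counter were used is not given in the sources used here. Tall fescue appears in the name of the count sheet, while its columns bear the bermudagrass descriptions.

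Members, lists and the naming rule were chosen with earlier results of these data known. The rule for IDs took the 2 largest rises at 2 h and the 2 deepest drops at 12 h. Planned marker and gene lists match on names and could not be used. Counts were rounded for testing, though the design had planned for whole counts. Unigenes were kept by filterByExpr (minimum count 10, minimum total 15), scaled by TMM and fitted with edgeR 4.0.16 in R 4.3.3 (glmQLFit, robust, a mean per group, 3 residual degrees of freedom). Standard errors were derived from the log2 fold change and the F statistic. Ratios in the text are of group means plus 1. Library totals of 6313500 to 9326725 reads set the precision. Alternatives were DESeq2 1.42.0, limma 3.58.1, other scalings, filters and limits, a replicate block and leaving out each library. The edgeR fit was tested on 4 simulated data sets of 25828 unigenes with 200 changed. For 2 h against control it recovered 67 to 78 of 100 changes of 4-fold and 30 to 40 of 100 of 2-fold, with 8.62% to 25% of calls false. For 12 h against control the numbers were 71 to 84 and 41 to 49, with 13.1% to 19.9% false. In the data 3706 unigenes were called higher and 3719 lower at 2 h than in controls. Far more unigenes were thus called than the simulation changed, so its rates need not hold for the data.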

Additional observations from a re-analysis of the deposited data

How the results depend on the processing

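The number of unigenes meeting the rule was 207 with TMM scaling, of which 193 were among the 195, and 218 with size factors from all rows above 0. It was 85 with library totals alone, 447 with a fold limit of 1.3, 41 with a limit of 2, 281 with a level limit of 50, 118 with one of 500, and 183 with 10 added to the means in place of 1. Leaving out each library in turn gave 176 to 246, and 154 to 182 of the 195 then met the rule. With a library left out, members called higher at 2 h numbered 117 to 180 (7.93% to 15.3% of all unigenes, the lowest of each without control replicate 1), those called lower at 12 h than control 151 to 179 (19.4% to 24.8%), and those called lower than at 2 h 187 to 189 (18.5% to 21.8%). Scaled to totals, 100 were called lower at 12 h than control by edgeR (12.6% of all unigenes) and 100 by limma on log2(FPKM + 1), which also scales to totals (12.0%). DESeq2 called 166, 186 and 194, against 10.5%, 21.5% and 19.7% of all unigenes. Without the most abundant member the shares of reads were 2.34%, 4.55% and 1.45%. The 8 fold changes of the 4 unigenes named by ID kept their direction in all 80 alternatives and their side of the threshold in 79. These unigenes were chosen in the same libraries by the rule and as its extremes. That choice favours the outcome, which does not extend to other members. The exception was the rise of c79281_g1 at 2 h without control replicate 1, which was 0.60 ± 0.18 on the log2 scale (SE, edgeR).

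Replicate numbers are shared by the groups. Across unigenes, deviations of replicate 1 from the group mean correlated at r = 0.008 between controls and 2 h and 0.035 between controls and 12 h. Between 2 h and 12 h r was 0.285, so these groups shared part of their deviations, and the source of this was not tested. The main fit did not take the numbers to pair libraries. With a replicate block edgeR called 184, 185 and 193 members, against 17.4%, 26.0% and 25% of all unigenes. At these depths the lowest 12 h levels rest on few reads, 5 in the lowest library.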
